A study of Mus musculus with 6 samples.

Results

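Endothelial adhesion molecules for leukocytes were described across 6 libraries of sorted mouse lung endothelial cells. The group held 8 genes, chosen by name as endothelial selectins and adhesion molecules, out of 24520 genes with a value. The genes were Sele, Selp, Icam1, Icam2, Vcam1, Cx3cl1, Cd99l2 and Alcam. All 8 were found, and each averaged 1 TPM or more, the level that a gene needed to be among the 12748 tested. TPM is an abundance relative to all transcripts and per transcript length, so levels can be compared between genes. Lung endothelial cells had been sorted by FACS from wild-type mice of 18 months (3 libraries, labelled Aged) and 8 months (3 libraries, labelled mAdu). The labels name no strain, sex or sort marker. Whether each library is a separate mouse is likewise unstated, and p-values measure only how these libraries vary, which may be technical.

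Leukocytes leave the blood in steps. Selectins on the vessel wall catch passing cells, chemokines held on the surface activate their integrins, and those integrins then bind cell adhesion molecules of the immunoglobulin family, after which the cell crosses the wall. In most organs these steps take place in small veins, whereas in the lung neutrophils also stop in the narrow alveolar capillaries. Inflammatory cytokines switch on several of these genes through the transcription factor NF-kB.

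Stretches of DNA just before the start sites of 4 of the genes are shown, because 2 of them hold motif letters named for cytokine-responsive factors and the other 2 are the genes with the lowest unadjusted p and with the greatest log2 difference between the ages. The sequences are from RefSeq on GRCm38.p6, forward strand, 5′ to 3′. Capitals mark 4 motifs that were searched, namely an NF-kB type sequence GGAANNTCC on both strands, a STAT type sequence TTCNNNGAA on both strands, the AP-1 sequence TGACTCA on both strands and the TATA box TATAAA on the forward strand. RefSeq promoters were matched for 6 of the 8 genes, without Icam2 and Vcam1. The stretch of Icam1 is chr9:21015690-21015939, that of Sele is chr1:164047984-164048233, that of Selp is chr1:164115014-164115263 and that of Cx3cl1 is chr8:94771930-94772008, which ends before the earliest annotated start.
Icam1: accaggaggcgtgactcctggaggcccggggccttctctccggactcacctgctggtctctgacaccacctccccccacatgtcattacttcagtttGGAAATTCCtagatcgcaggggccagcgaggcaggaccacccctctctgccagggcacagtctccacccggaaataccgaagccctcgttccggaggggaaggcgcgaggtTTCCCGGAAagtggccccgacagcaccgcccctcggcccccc
Sele: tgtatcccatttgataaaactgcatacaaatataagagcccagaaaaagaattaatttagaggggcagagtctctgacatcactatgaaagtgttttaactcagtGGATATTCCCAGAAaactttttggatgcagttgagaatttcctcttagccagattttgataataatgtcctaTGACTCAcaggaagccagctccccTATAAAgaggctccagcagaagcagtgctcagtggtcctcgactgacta
Selp: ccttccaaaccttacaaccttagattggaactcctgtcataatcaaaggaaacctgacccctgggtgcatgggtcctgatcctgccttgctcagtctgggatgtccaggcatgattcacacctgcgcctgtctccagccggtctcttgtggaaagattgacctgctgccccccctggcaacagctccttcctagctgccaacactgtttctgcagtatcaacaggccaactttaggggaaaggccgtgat
Cx3cl1: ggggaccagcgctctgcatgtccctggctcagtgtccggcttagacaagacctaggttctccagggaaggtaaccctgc
In the 250 bases before the RefSeq start, the NF-kB type sequence occurred in Icam1 as GGAAATTCC from base 153 to base 145 before the start and in Sele as GGATATTCC from base 145 to base 137. It was present in 3.59% of all 32851 RefSeq promoter windows of that length. The STAT type sequence, found in 7.02% of windows, occurred in the same 2 genes, and in Sele it shared bases with the NF-kB type sequence. Sele also held the AP-1 sequence (4.46% of windows) and a TATA box (7.59% of windows). None of the 4 motifs lay in the windows of Selp, Cd99l2 and Alcam. The window of Cx3cl1 held the letters TATAAA alone, from base 6 to base 1 before the RefSeq start. They lie beyond the stretch shown and after the earliest annotated start. These are matches of letters, and binding was not measured.

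None of the 8 genes passed the test between 18 and 8 months (limma, Benjamini-Hochberg adjustment over 12748 genes, adjusted p from 0.13 to 0.98). Of all tested genes 0.0235% passed. In 7 of the 8 genes the mean log2(TPM + 1) was lower at 18 months, as in 8445 of all 12748 tested genes, and the median log2 difference of the 8 was -0.48, beside -0.08 over all tested genes. All 18-month libraries lay below all 8-month libraries in Cx3cl1, Icam1 and Cd99l2, that is in 3 of 8 genes, where 14.2% of all tested genes did so and 4.48% lay the other way round. At an unadjusted p under 0.05, 2 of the 8 lay lower at 18 months, Cx3cl1 and Icam1, beside 9.99% of all tested genes, and 0 lay higher, beside 3.45%. An exact permutation test of 3 against 3 libraries cannot go below p = 0.1, 2-sided, which is its value for these 3 genes.

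**Figure D1:**
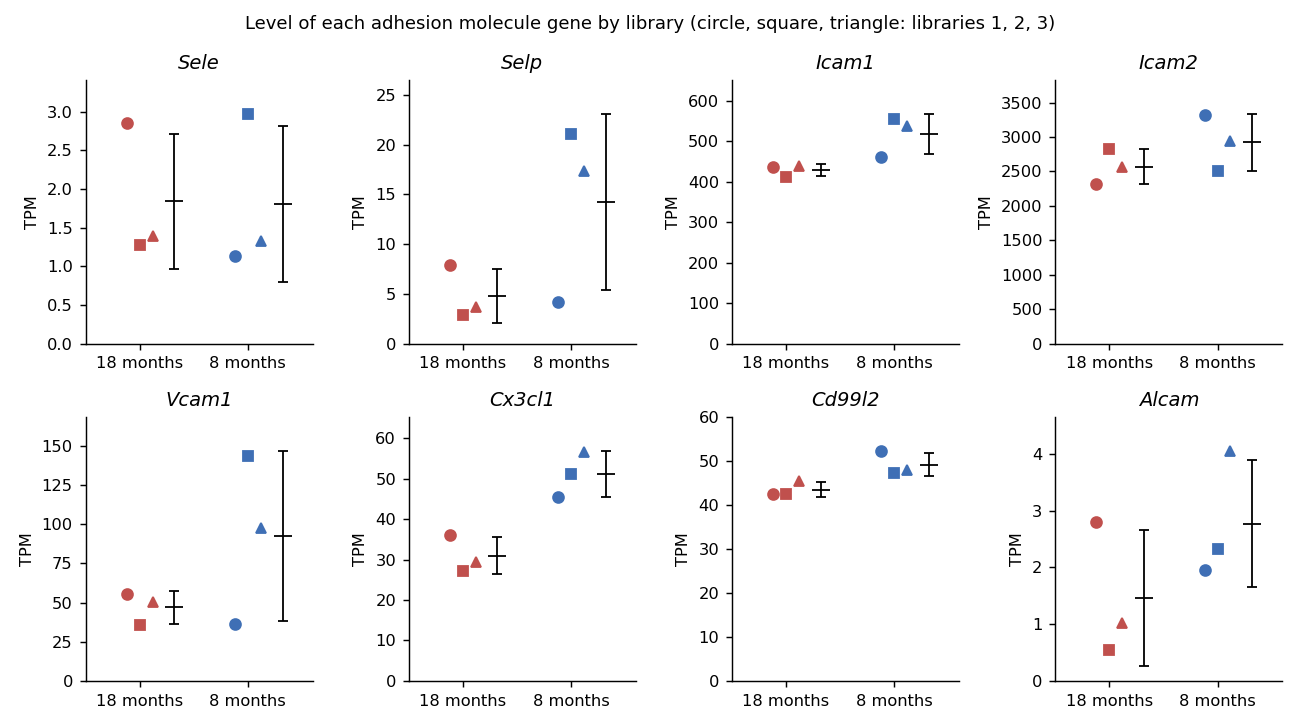
TPM of the 8 genes in each library, 18 months on the left and 8 months on the right of each panel, with circle, square and triangle for libraries 1, 2 and 3 of an age and the mean with its SD (n = 3) in black. The ages are apart in Cx3cl1, Icam1 and Cd99l2, and 8-month libraries 2 and 3 stand above the other 4 in Vcam1 and Selp.

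The levels of the 8 genes fell into tiers. Icam2 was the most abundant at both ages, above 99.8% of all tested genes, and made up 75.3% to 84.6% of the summed TPM of the 8 genes in a library. Icam1 followed. Vcam1, Cd99l2 and Cx3cl1 formed the middle tier, averaging 47.1, 43.5 and 30.9 TPM in 18-month libraries against 92.3, 49.2 and 51.1 TPM in 8-month libraries, and the ranges of Vcam1 and Cd99l2 overlapped at both ages. Cx3cl1 lay below Cd99l2 in each 18-month library and overlapped it at 8 months. Selp came next with means of 4.81 TPM at 18 months and 14.2 TPM at 8 months. Sele and Alcam were lowest, averaging 1.84 and 1.46 TPM in 18-month libraries against 1.81 and 2.77 TPM in 8-month libraries, and their ranges overlapped at both ages.

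Of the selectins, Selp encodes P-selectin, which endothelial cells and platelets store in granules and bring to the surface on stimulation. Selp (ENSMUSG00000026580, chromosome 1, 164115264 to 164150026, GRCm38) had 7.90, 2.83 and 3.72 TPM in the 18-month libraries and 4.21, 21.1 and 17.3 TPM in the 8-month libraries. 8-month libraries 2 and 3 stood above the other 4, and the first 8-month library lay within the 18-month range, so the ages overlapped. The log2 difference of -1.24 was the greatest in size of the 8, with an SE of 0.55 and a 95% interval of -2.52 to 0.04 (adjusted p = 0.39, limma). It was -1.89 without the first 8-month library and -0.84 without the second. The residual SD of Selp was greater than that of 98.0% of tested genes. Of the 31-base sequences in Selp transcripts, 12.5% also occurred in other genes, on either strand. The overlapping Gm16548 on the opposite strand lay at 0.0629 to 0.177 TPM at 18 months and 0 to 0.468 TPM at 8 months, and no source says that counting used strand.

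Sele encodes E-selectin, which endothelial cells make after exposure to cytokines. Sele (ENSMUSG00000026582, chromosome 1, 164048234 to 164057677) had 2.85, 1.28 and 1.39 TPM in the 18-month libraries and 1.13, 2.97 and 1.33 TPM in the 8-month libraries. In each age 1 library stood above the other 2, and the ages overlapped. The log2 difference was 0.03 with a 95% interval of -0.70 to 0.75 (adjusted p = 0.98, limma), and its sign was negative when the first 18-month, the first 8-month or the third 8-month library was left out, at -0.21, -0.14 and -0.08.

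Icam1 and Icam2 encode ligands for leukocyte integrins that contain the beta chain Itgb2. Icam1 is raised by cytokines and is also expressed by alveolar type I epithelium. Icam1 (ENSMUSG00000037405, chromosome 9, 21015985 to 21028817) had 435.6, 412.3 and 439.7 TPM in the 18-month libraries and 462.2, 554.0 and 537.9 TPM in the 8-month libraries. All values at 18 months lay below all values at 8 months, with a difference of -17.1% in the mean and of -0.27 on the log2 scale (SE 0.10, limma adjusted p = 0.31). Of the 31-base sequences in Icam1 transcripts, 14.8% also occurred in other genes, on either strand. Icam1 overlaps the antisense gene Gm47079 in 511 exon bases, and Gm47079 was not among the genes with a value. Summed epithelial markers reached from 9592.5 to 19428.7 TPM at 18 months and from 11116.7 to 20303.0 TPM at 8 months, led by Sftpc and Scgb1a1, while Epcam lay below 1.4 TPM in all libraries. Ager and Hopx, the type I markers of that list, are a small part of the sum. Ager had 79.4, 61.5 and 54.3 TPM at 18 months, against 66.1, 67.8 and 111.3 TPM at 8 months. Hopx had 61, 84.7 and 69.9 TPM at 18 months, against 92.5, 71.6 and 83.4 TPM at 8 months. The summed markers were highest in the third 8-month library, where Icam1 was below its value in the second, and the part of epithelial cells in the level of Icam1 was not tested.

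Icam2, a ligand that endothelial cells carry without stimulation, had its highest and lowest libraries elsewhere than Icam1. Icam2 (ENSMUSG00000001029, chromosome 11, 106377656 to 106388075) had 2310.2, 2831 and 2570.1 TPM in the 18-month libraries and 3324.1, 2505.1 and 2935.6 TPM in the 8-month libraries. The ages overlapped, with a log2 difference of -0.18 and a 95% interval of -0.51 to 0.15 (adjusted p = 0.64, limma). The ratio of Icam1 to Icam2, which no scaling of a library can alter, was 0.189, 0.146 and 0.171 at 18 months and 0.139, 0.221 and 0.183 at 8 months, again with overlap. Near Icam1 on chromosome 9 lie Icam4, of red blood cells, and Icam5, of neurons. Icam4 averaged 6.21 ± 0.888 TPM at 18 months and 6.69 ± 0.966 TPM at 8 months (SD, n = 3), and Icam5 did not exceed 0.129 TPM in any library.

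Vcam1 encodes a ligand of the leukocyte integrin that contains Itga4, and in lung it is also made by mesenchymal cells. Vcam1 (ENSMUSG00000027962, chromosome 3, 116109949 to 116129688) had 55.6, 35.4 and 50.1 TPM in the 18-month libraries and 36.1, 143.7 and 97.2 TPM in the 8-month libraries. As in Selp, 8-month libraries 2 and 3 stood above the other 4 and the first did not. The log2 difference was -0.77 with a 95% interval of -1.81 to 0.27 (adjusted p = 0.51, limma), and it was -0.35 without the second 8-month library and -1.34 without the first. Vcam1 spanned 1.57-fold within the 18-month libraries and 3.99-fold within the 8-month libraries, and its residual SD was greater than that of 97.0% of tested genes. Among the 7 other genes of the group, Selp had the pattern nearest to that of Vcam1, with a root mean square difference of 0.35 between the log2(TPM + 1) values over the 6 libraries, each centred on its gene's mean.

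Of 9 markers of veins, 8 were highest in 8-month libraries 2 and 3, as were Vcam1 and Selp, which were set aside from that list. The exception was Ephb4, a receptor kinase of veins, with 106.5, 95.1 and 91.3 TPM in the 18-month libraries and 109.2, 107.3 and 84.4 TPM in the 8-month libraries. The share of all tested genes that were highest in these 2 libraries was not counted, so the 8 of 9 has no base rate beside it. Eln and Ptgs1 spanned little, at 14.0 to 18.2 and 116.2 to 127.3 TPM at 18 months, against 19.7 to 23.1 and 134.6 to 150.3 TPM at 8 months. The sum over the 9 genes was 650.3, 553.3 and 653.7 TPM in the 18-month libraries and 702.5, 1195.6 and 1011.6 TPM in the 8-month libraries, so that, unlike Vcam1 and Selp, the sum did not overlap between the ages. Of these markers, Ackr1, a chemokine receptor of venules, had 2.05, 1.51 and 1.56 TPM in the 18-month libraries and 1.37, 5.62 and 4.06 TPM in the 8-month libraries. Vwf, the glycoprotein stored together with P-selectin, had 291.8, 253.8 and 336.5 TPM in the 18-month libraries and 283.0, 609.8 and 481.4 TPM in the 8-month libraries. In both, 8-month libraries 2 and 3 were high and the first was not. Cpe, a peptide-processing enzyme, had 4.88, 2.35 and 2.85 TPM at 18 months against 7.47, 19.9 and 17.3 TPM at 8 months, with no overlap. Over the 9 markers the median log2 difference was -0.67, all 9 values were below 0, where 8445 of all 12748 tested genes were, 5 of the 9 had all 18-month libraries below all 8-month libraries, beside 14.2% of all tested genes, and none passed. Leaving out 8-month library 2 brought this median to -0.40, and leaving out 8-month library 1 to -0.96. The ratio of Selp to Vwf was 0.0271, 0.0112 and 0.0110 at 18 months and 0.0149, 0.0346 and 0.0359 at 8 months, again highest in 8-month libraries 2 and 3 and with the ages overlapping. In sorted bulk cells fewer cells of a type and less RNA per cell cannot be told apart, and the part of vein cells in these values was not tested.

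Summed mesenchymal markers over 14 genes had 28.6, 21.1 and 25.5 TPM at 18 months, against 41.9, 59.5 and 39.4 TPM at 8 months. The sum was highest in the second 8-month library, as was Vcam1. Unlike Vcam1, the sum did not overlap between the ages and was higher in the first 8-month library than in the third. Among the 14 genes, Wt1, Msln, Upk3b, Pdgfra and Cspg4 lay below 1 TPM in all libraries. Summed lymphatic markers lay at 602.3 to 759.4 TPM at 18 months and 917.2 to 1153.4 TPM at 8 months. Nearly all of this sum was Lyve1, which had 718.5, 575.4 and 626.5 TPM at 18 months, against 1113.3, 844.2 and 976.2 TPM at 8 months, with Prox1 and Reln below 1 TPM in all libraries. Lyve1 was highest in the first 8-month library, whereas Ccl21a was high in 8-month libraries 2 and 3, as were Vcam1 and Selp. Ccl21a had 1.66, 1.66 and 1.39 TPM at 18 months, against 3.67, 21.9 and 17.8 TPM at 8 months, without overlap. Flt4 had 35, 48.2 and 43.8 TPM and Mmrn1 0.588, 1.33 and 2.55 TPM at 8 months, both overlapping the 18-month libraries. Summed platelet markers lay at 39.7 to 54.9 TPM at 18 months and 27.4 to 78.5 TPM at 8 months, lowest in the second 8-month library, where Selp was highest, and 4 of the 10, Gp1ba, Gp1bb, Gp5 and Gp6, lay below 1 TPM in all libraries. The part of the mesenchymal and lymphatic markers in the levels of Vcam1 and Selp, and of the platelet markers in that of Selp, was not tested.

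**Figure D2:**
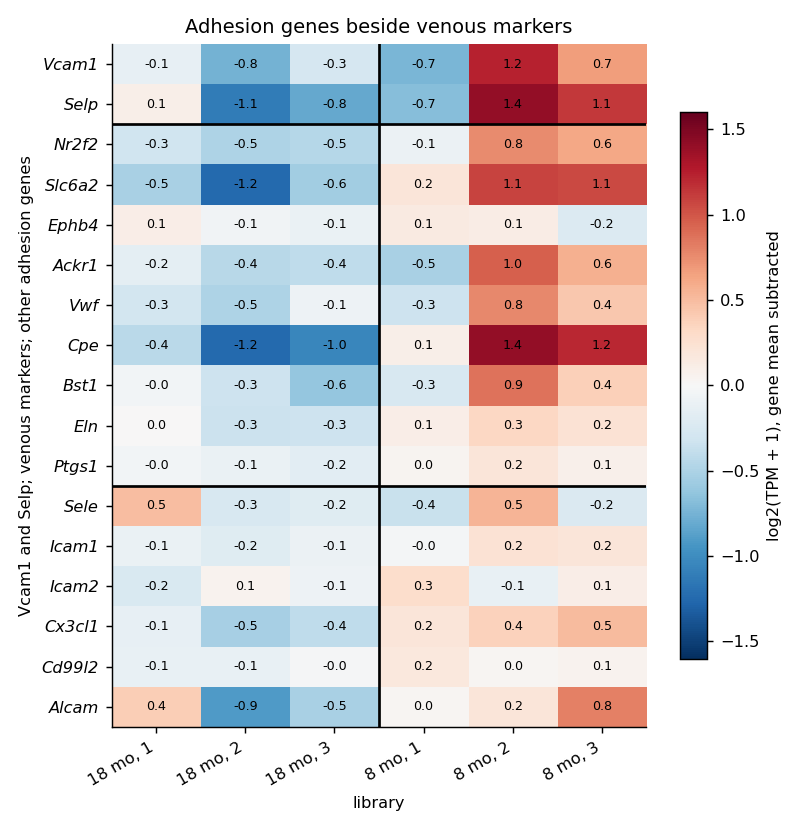
log2(TPM + 1) minus the gene's mean over the 6 libraries, as colour and number, for Vcam1 and Selp (top block), 9 venous markers (middle block) and the other 6 adhesion genes (bottom block), with 18-month libraries left of 8-month libraries. Vcam1 and Selp are high in 8-month libraries 2 and 3, as are 8 of the 9 venous markers, Eln and Ptgs1 only slightly, while Ephb4 is lowest in 8-month library 3, and Icam1, Icam2 and Cd99l2 vary little.

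Cx3cl1 encodes fractalkine, a chemokine anchored in the endothelial membrane that holds cells carrying the receptor Cx3cr1. Cx3cl1 (ENSMUSG00000031778, chromosome 8, 94772009 to 94782427) had 36.0, 27.1 and 29.5 TPM in the 18-month libraries and 45.4, 51.2 and 56.6 TPM in the 8-month libraries. The ages did not overlap, and the mean at 18 months differed by -39.6% from that at 8 months. The log2 difference of -0.71, with an SE of 0.14 and a 95% interval from -1.03 to -0.39, had the smallest unadjusted p of the 8 genes, at 0.00092, rank 90 of 12748, and did not pass after adjustment (limma adjusted p = 0.13). It passed with library weights (limma adjusted p = 0.042) and in none of the other 19 alternatives, over which the adjusted p ranged from 0.072 to 0.33. Leaving out each library in turn gave -0.82 to -0.63. The ratio of Cx3cl1 to Cdh5, the endothelial cadherin, was 0.0487, 0.0416 and 0.0363 at 18 months and 0.0519, 0.0586 and 0.0611 at 8 months, also without overlap.

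Cd99l2 encodes a membrane protein used in the last step, the crossing of the vessel wall. Cd99l2 (ENSMUSG00000035776, chromosome X, 71420060 to 71492849) had 42.5, 42.5 and 45.5 TPM in the 18-month libraries and 52.2, 47.4 and 47.9 TPM in the 8-month libraries. The ages did not overlap but were close, with a difference of -11.5% in the mean, a log2 difference of -0.17 and a 95% interval of -0.39 to 0.05 (adjusted p = 0.48, limma). Cd99l2 was the steadiest of the 8, with a smaller residual SD than all but 3.14% of tested genes.

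Alcam, a ligand of Cd6 on T cells, was the most variable at 18 months. Alcam (ENSMUSG00000022636, chromosome 16, 52248996 to 52454074) had 2.80, 0.549 and 1.02 TPM in the 18-month libraries and 1.95, 2.32 and 4.04 TPM in the 8-month libraries. The first 18-month library lay within the 8-month range, so the ages overlapped, and the log2 difference was -0.68 with a 95% interval of -1.52 to 0.15 (adjusted p = 0.47, limma). With a pseudocount of 0.1 it was -1.09. It was -1.05 without the first 18-month library, -0.41 without the second and -0.45 without the third 8-month library.

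**Figure D3:**
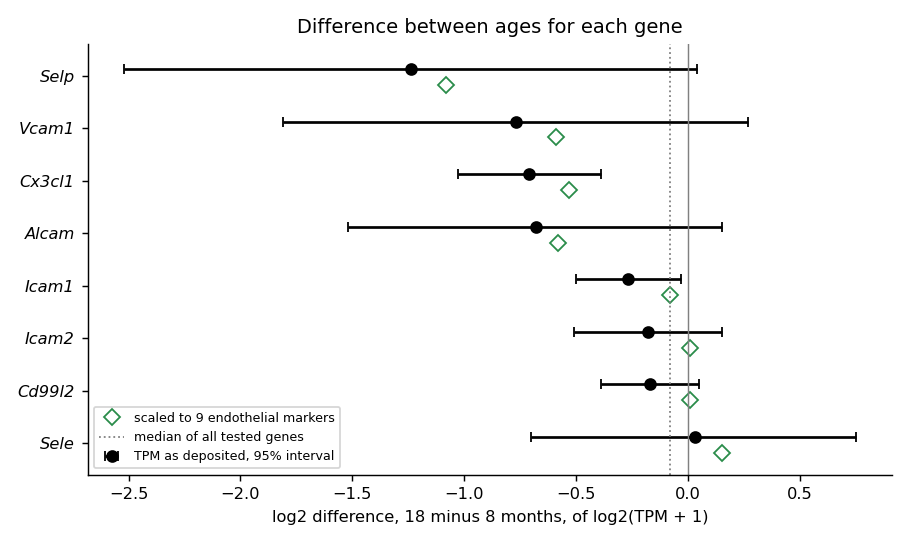
Log2 difference of log2(TPM + 1), 18 minus 8 months, for the 8 genes, with the 95% interval (black) and the value after scaling each library to 9 endothelial markers (green diamonds), the dotted line marking the median of all tested genes. The intervals of Cx3cl1 and Icam1 lie below 0, and the diamonds of Icam2 and Cd99l2 lie at 0.01, with the sign turned.

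The sum of endothelial markers was itself not level between the ages. Over 10 genes it lay at 10852.0 to 11648.6 TPM at 18 months and 11958.1 to 13419.8 TPM at 8 months. The sum was led by Egfl7, with 4535.3 to 5232.2 TPM at 18 months and 4454 to 5832.7 TPM at 8 months, overlapping. None of the 10 passed (limma, lowest adjusted p = 0.14). In 3 of the 10 all 18-month libraries lay below all 8-month libraries, beside 14.2% of all tested genes. Among the 10 markers Kdr averaged 372.8 ± 36.8 TPM at 18 months and 540.1 ± 44.5 TPM at 8 months. Pecam1 averaged 1354.0 ± 76.4 TPM at 18 months and 1350.5 ± 62.4 TPM at 8 months (SD, n = 3). When each library was scaled to 9 of these markers, without Vwf, the median of all tested genes moved by 0.17 on the log2 scale. On that scale Cx3cl1 had 37.6, 31 and 30 units at 18 months and 43.6, 45.2 and 54.9 units at 8 months, still without overlap, whereas Icam1 and Cd99l2 overlapped. The log2 differences became -0.53 for Cx3cl1 and -0.08 for Icam1, and those of Icam2 and Cd99l2 turned to 0.01. Relative to the median of all tested genes, Cx3cl1 stood at -0.63 as deposited and -0.62 with this scaling, Icam1 at -0.19 and -0.17, and Cd99l2 at -0.09 and -0.08. One factor per library moves all genes nearly alike, so these distances could hardly change and their likeness is no test.

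**Figure D4:**
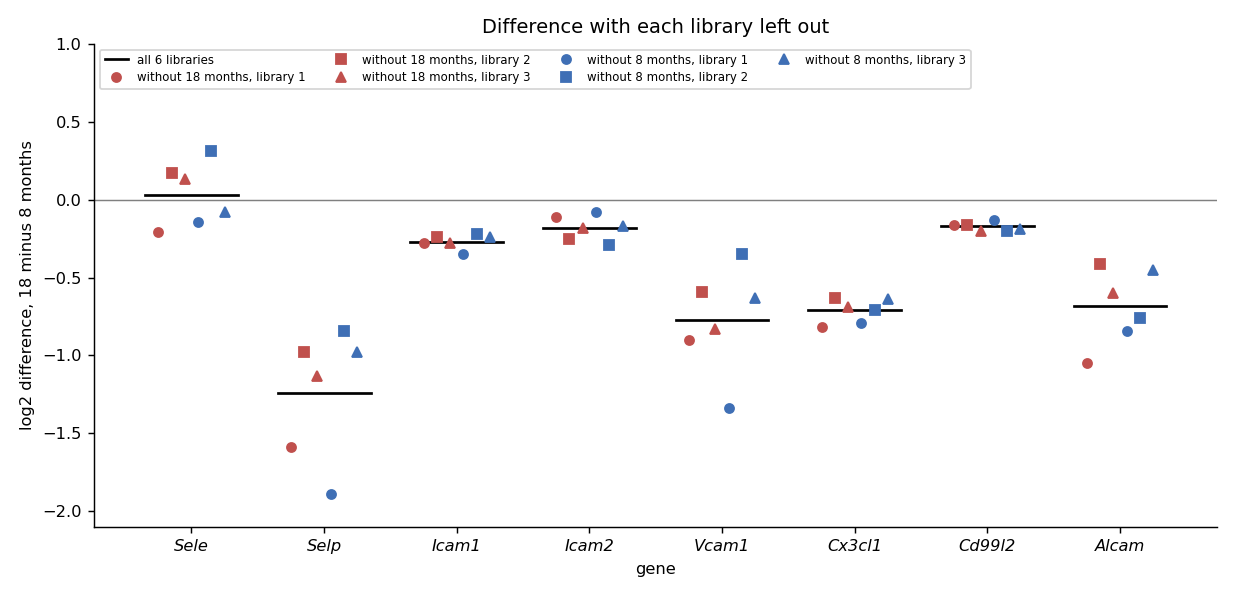
Log2 difference, 18 minus 8 months, of the 8 genes with all 6 libraries (black bar) and with each library left out in turn (red for 18 months, blue for 8 months, circle, square and triangle for libraries 1, 2 and 3). Vcam1 and Selp move most with 8-month libraries 1 and 2, Sele takes either sign, and Cx3cl1 stays between -0.82 and -0.63.

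The partners of these genes along the pathway were read from lists of genes. By limma none of their genes passed in either direction after adjustment over the whole table, and medians are given beside the -0.08 of all tested genes. Scaling to endothelial markers turned the medians of junction genes, cortical proteins, Weibel-Palade genes, inflammatory receptors, NF-kB machinery and quiescence factors positive, at 0.05, 0.05, 0.06, 0.03, 0.11 and 0.08, beside 0.09 for all tested genes. Among 18 tested genes of junctions and leukocyte passage the median log2 difference was -0.13, and 4 had all 18-month libraries below all 8-month libraries, beside 14.2% of all tested genes. Cd47, a surface protein that signals to leukocytes, had 227.0, 231.2 and 233.7 TPM at 18 months, against 328.2, 301.1 and 349.5 TPM at 8 months, the smallest unadjusted p of that list (limma adjusted p = 0.12). Cdh5 averaged 734.7 ± 79.8 TPM at 18 months and 891.7 ± 29.8 TPM at 8 months (SD, n = 3). Stab1, a scavenger receptor, averaged 96.0 ± 21.4 TPM at 18 months and 123.7 ± 9.13 TPM at 8 months. Glycam1 and Madcam1, selectin and integrin ligands of lymph node and gut vessels, were listed at 0 in all 6 libraries.

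The enzymes that build selectin ligands had a median of -0.47 over 9 tested genes, or -0.29 with no filter on low values. All 9 values were below 0, where 8445 of all 12748 tested genes were. Chst1, a sulfotransferase of carbohydrate chains, had 4.27, 3.01 and 5.29 TPM at 18 months, against 9.05, 8.29 and 12 TPM at 8 months, without overlap. B3gnt3, which extends the chains that carry such sulfate, had 63.6, 49.4 and 59.0 TPM at 18 months, against 79.7, 89.3 and 80.4 TPM at 8 months. Chst2, a related sulfotransferase, averaged 5.64 ± 0.714 TPM at 18 months and 9.48 ± 0.847 TPM at 8 months (SD, n = 3). These 3 of the 9 genes had all 18-month libraries below all 8-month libraries, beside 14.2% of all tested genes, and did not pass (limma adjusted p from 0.14 to 0.16). Chst4 was listed at 0 in every library.

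The cortical proteins beneath the clustered adhesion molecules showed a median of -0.12 over 16 genes, and of -0.03 when 8-month library 1 was left out. Arhgef26, an exchange factor for the GTPase RhoG that acts downstream of ICAM1, had 32.2, 35 and 41.9 TPM at 18 months, against 17.5, 27.2 and 26.2 TPM at 8 months, above at 18 months without overlap (limma adjusted p = 0.21). Vasp averaged 20.5 ± 2.11 TPM at 18 months and 27.1 ± 4.35 TPM at 8 months, and Actn4 178.9 ± 32 TPM at 18 months and 231 ± 38.7 TPM at 8 months (SD, n = 3). Proteases that shed these molecules and their inhibitors had a median of -0.27 over 11 genes, which was -0.12 with the GC and length correction and -0.09 when scaled to endothelial markers. Adam10 and Adam17, which release fractalkine from the membrane, averaged 57.1 ± 7.68 and 32.5 ± 4.83 TPM at 18 months, against 64.4 ± 5.71 and 38.5 ± 2.30 TPM at 8 months (SD, n = 3). These 2 were named for their role, after their values were seen. By the smallest unadjusted p, Timp2, a metalloproteinase inhibitor, averaged 92.8 ± 4.70 TPM at 18 months and 113.0 ± 10.3 TPM at 8 months. Rhbdf1 averaged 16.3 ± 3.47 TPM at 18 months and 21.0 ± 1.01 TPM at 8 months. Adam9 averaged 8.09 ± 1.98 TPM at 18 months and 10.7 ± 0.621 TPM at 8 months.

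Among genes of the Weibel-Palade body, the granule of P-selectin, the median was -0.12 over 14 genes, and -0.23 when 8-month library 1 was left out. Plat, tissue plasminogen activator, had 305.0, 239.5 and 333.7 TPM at 18 months, against 232.2, 139.1 and 205.1 TPM at 8 months, above at 18 months without overlap and opposite in sign to Selp and Vwf (limma adjusted p = 0.25). Exoc6 averaged 79.7 ± 8.14 TPM at 18 months and 63.9 ± 11.5 TPM at 8 months, and Rab27a 36.6 ± 3.68 TPM at 18 months and 47.3 ± 9.30 TPM at 8 months (SD, n = 3).

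The inducing pathway gave values on both sides of 0. Receptors for the inducing ligands had a median of -0.14 over 13 genes. Tnfrsf1a, the main receptor for TNF, had 307.5, 249.8 and 294.1 TPM at 18 months, against 352.5, 404.0 and 358.6 TPM at 8 months, and Il1rap, a subunit of the interleukin-1 receptor, averaged 13.4 ± 1.75 TPM at 18 months and 20.2 ± 3.17 TPM at 8 months. F2r, a thrombin receptor, was the higher in 18-month libraries, averaging 55.6 ± 6.96 TPM at 18 months and 39.7 ± 1.78 TPM at 8 months (SD, n = 3). These 3, picked by the smallest unadjusted p, did not overlap between the ages (limma adjusted p from 0.18 to 0.20). Of the 13 genes, 4 had all 18-month libraries below all 8-month libraries, beside 14.2% of all tested genes. The other way round it was 1, beside 4.48%.

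The NF-kB machinery had a median of -0.07 over 16 genes, close to that of all tested genes. Rela, the subunit p65, had 23.7, 20.6 and 27.2 TPM at 18 months, against 32.7, 37.6 and 36.8 TPM at 8 months, without overlap (limma adjusted p = 0.16). Tradd averaged 24.6 ± 2.41 TPM at 18 months and 33.4 ± 5.54 TPM at 8 months, and Traf6 11.5 ± 2.27 TPM at 18 months and 14.3 ± 0.321 TPM at 8 months. Other NF-kB induced genes had a median of 0.04 over 19 genes, 12 with values above 0 and 7 below, and the median turned to -0.05 when 18-month library 1 was left out, and to -0.04 and -0.02 when 8-month library 1 or 2 was. Ccl2, a monocyte chemokine, averaged 1.88 ± 0.764 TPM at 18 months and 3.87 ± 0.443 TPM at 8 months. Sod2 averaged 24.3 ± 2.33 TPM at 18 months and 27.9 ± 0.0803 TPM at 8 months. Ptgs2, a prostaglandin synthase, had 10.6, 1.83 and 2.48 TPM at 18 months against 7.57, 30.8 and 7.57 TPM at 8 months. Ptgs2 was highest in the same library as Sele, Selp and Vcam1, whereas Ccl2 was highest in the first 8-month library, at 4.21 TPM. Sele had 2.97 TPM in that second 8-month library, close to its 2.85 TPM in the first 18-month library.

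Among factors of quiescent endothelium the median was -0.10 over 12 genes. Nr2f2, the transcription factor of venous identity, averaged 6.34 ± 0.486 TPM at 18 months and 12.6 ± 3.90 TPM at 8 months, Nos3 14.1 ± 4.36 TPM at 18 months and 22.9 ± 2.60 TPM at 8 months, and Klf2, which restrains Vcam1 and Sele induction, 170.6 ± 24.6 TPM at 18 months and 211.7 ± 24.1 TPM at 8 months (SD, n = 3). The smallest limma adjusted p of this list was 0.19.

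**Figure D5:**
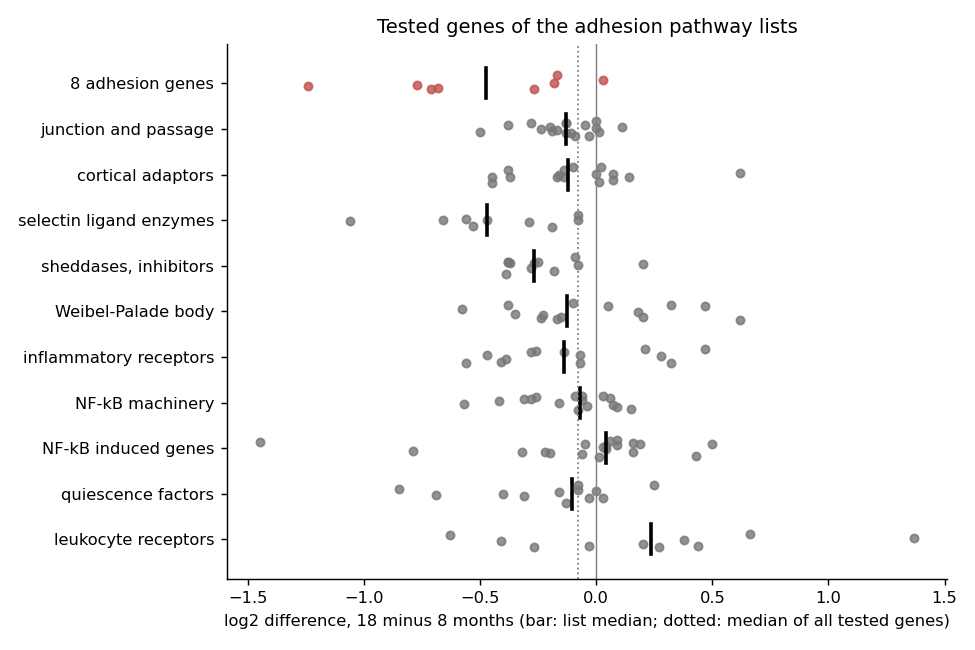
Log2 difference, 18 minus 8 months, of each tested gene (points) in the lists around leukocyte adhesion, with the list median as a black bar and the median of all tested genes as a dotted line. The 8 adhesion genes (red) and the selectin ligand enzymes have medians of -0.48 and -0.47, NF-kB machinery lies at -0.07, and leukocyte receptors lie at 0.24, which turns to -0.02 without the second 8-month library. With scaling to endothelial markers the NF-kB machinery turns to 0.11, beside 0.09 for all tested genes.

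On the side of the leukocyte, the counter-receptors had a median of 0.24 over 10 tested genes, which was -0.02 without the second 8-month library and -0.07 with no filter on low values. Itgb2, the integrin chain that binds the proteins of Icam1 and Icam2, had 28.0, 32.9 and 16.9 TPM at 18 months, against 5.46, 4.87 and 26.0 TPM at 8 months, overlapping through the third 8-month library (limma adjusted p = 0.34). Itgb7 averaged 3.03 ± 0.519 TPM at 18 months and 4.34 ± 0.215 TPM at 8 months, and Itga9 2.64 ± 0.527 TPM at 18 months and 1.81 ± 0.546 TPM at 8 months (SD, n = 3). Cx3cr1 stayed at or below 1.01 TPM and Cd6 at or below 0.341 TPM in all libraries, so neither was tested. Summed monocyte, macrophage and dendritic cell markers lay at 932.0 to 1719.4 TPM at 18 months and 636.2 to 1767.5 TPM at 8 months, led by Lyz2, while Csf1r lay below 1 TPM. Over the 11 tested markers of this list the median was 0.66 (0.28 to 0.83 over the 20 alternatives), with 10 values above 0 and none passing. Chil3, a lectin of alveolar macrophages in mice, had 140.5, 390.6 and 248.7 TPM at 18 months, against 26.7, 31.4 and 140.1 TPM at 8 months, and Cd14, a receptor for endotoxin, averaged 33.1 ± 4.70 TPM at 18 months and 20.4 ± 3.98 TPM at 8 months (SD, n = 3). These 2 of the 11 lay higher at 18 months without overlap, beside 4.48% of all tested genes. The part of these markers in the values of Itgb2 and the counter-receptors was not tested. Summed lymphocyte markers lay at 27.7 to 34.4 TPM at 18 months and 25.0 to 74.7 TPM at 8 months, and summed neutrophil markers at 17.7 to 19.2 TPM at 18 months and 14.3 to 18.8 TPM at 8 months, with Ly6g at 0 throughout. The neutrophil sum was led by Cxcr2, at 10.2 to 14.2 TPM. Lower in level, S100a8 had 1.63, 3.57 and 1.35 TPM at 18 months, against 1.17, 0.327 and 1.04 TPM at 8 months. S100a9 had 0.206, 1.55 and 0.634 TPM at 18 months, against 0 TPM in each 8-month library. Ngp went the other way, with 0.219, 0.12 and 0.148 TPM at 18 months, against 0.498, 0.575 and 0.368 TPM at 8 months.

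For each gene the tested genes of at least 5 TPM with the most similar pattern over the 6 libraries were taken by the smallest root mean square difference of centred log2(TPM + 1). For Cx3cl1 these were Il17rc and Sf3b4, at 0.067 and 0.069. For Vcam1 they were Prss23 and Myof, both at 0.20, and for Selp they were Ypel3 and Car8, at 0.30 and 0.34. Prss23 had 22.9, 14.0 and 17.0 TPM at 18 months, against 17.4, 46.1 and 36.4 TPM at 8 months, high in the same 2 libraries as Vcam1. Icam1 was nearest to Mrps34 and Dcp1b (0.030 and 0.036), Icam2 to Slc9a3r2 and Hopx (0.050 and 0.055), and Cd99l2 to Ap2m1 and Trappc2 (0.0061 and 0.023). Sele was nearest to Ctps and Osmr, both at 0.11, and Alcam to Sik1 and Tiparp, at 0.093 and 0.20.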

How the data were processed

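The deposited values are TPM, made by the authors with kallisto on mm10 per the submitters' processing notes. Libraries used SMARTer Ultra Low amplification per the labels' protocols. The sources used here do not give the kallisto version, transcript set or summing to genes. TPM keep no depth, so no counting error is given. Columns summed to 869315 to 876126 TPM. Symbols and positions came from GENCODE M21 (GRCm38), where 24299 of 24520 identifiers were found. For 12748 genes averaging 1 TPM or more, log2(TPM + 1) was tested with limma 3.58.1 (R 4.3.3), intensity trend, age alone, 2-sided, Benjamini-Hochberg, threshold 0.05, and tested on simulated data. Log2 differences understate changes of low genes. The 8 genes and the lists were chosen with earlier results of these data known. All 8 genes are named, with the up to 3 genes per pathway list of smallest unadjusted p and the 2 nearest patterns per gene. Other genes (neighbours, 0-level ligands, marker genes, ratios, Adam10, Adam17) were chosen after their values were seen. Of the marker lists only sums and these genes are printed. Alternatives are other pseudocounts (0.1, 0.5), filters, scalings, variance models, a replicate block, a GC and length correction (loess, span 0.75), protein-coding genes alone, each library left out, and, chosen after seeing the data, scaling to 9 endothelial markers.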

Additional observations from a re-analysis of the deposited data

How the results depend on the processing

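Of 158 values of the 8 genes under the 20 alternatives, 151 kept their sign and their side of the threshold. Cx3cl1 passed with library weights (-0.76, limma adjusted p = 0.042). Sele turned to -0.13 with library weights and ranged from -0.21 to 0.31 with a library left out. Icam2 and Cd99l2 turned to 0.01 when scaled to 9 endothelial markers. The cause was not tested. Sele and Alcam have no value at a mean of at least 5 TPM. With each library left out, the ranges were -0.35 to -0.22 for Icam1, -0.29 to -0.08 for Icam2, -1.34 to -0.35 for Vcam1, -1.89 to -0.84 for Selp, -0.82 to -0.63 for Cx3cl1, -0.20 to -0.13 for Cd99l2 and -1.05 to -0.41 for Alcam. Of 380 list medians under alternatives, 35 moved by more than 1 SD between replicates, and signs there depend on scaling where a median is near 0.

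Over all genes limma called 3 genes (1714 at an unadjusted p under 0.05). The number was 16 with quantile normalization, 94 with library weights, 28 among protein-coding genes, 19 scaled to endothelial markers and 0 with no filter (2203 unadjusted). It was 0 with the replicate block (1445 unadjusted), 0 with the GC and length correction and the replicate block (1443 unadjusted), and 0 to 2 with a library left out (1135 to 2112 unadjusted). Whether replicate numbers pair libraries is not stated. Deviations from group means of same-numbered libraries correlated at -0.012, -0.090 and 0.057, across genes, and not every library correlated best with its own number. With so few libraries per age these correlations cannot settle whether libraries were paired. The block turned no sign among the 8 genes, and none of the 8 passed with it.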
